A study of Homo sapiens with 46 samples.

Results

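The cytoplasm of endoderm cells was compared with the cytoplasm of the pluripotent cells they were made from. The comparison used 3 libraries of endoderm cytoplasm and 3 of hPSC (human pluripotent stem cell) cytoplasm, chosen by their titles from the 46 libraries of the series. The series holds 16 groups of 1 cell type and 1 cell fraction each, from hPSCs and 3 derived cell types (ectoderm, endoderm and mesoderm). The hPSCs were H1, an established human embryonic stem cell line, grown in mTeSR1 medium on Matrigel. For endoderm, H1 cells were moved to RPMI medium with WNT3A, Activin A at 100 ng/ml and 0.5% FBS, and cells were collected after 5 days. Ectoderm and mesoderm cytoplasm, 3 libraries each, served in a side comparison. Ectoderm was made in DMEM/F12 with KOSR, A83-01, PNU-74654 and Dorsomorphin. Mesoderm was made in DMEM/F12 with 0.5% FBS, VEGF, BMP4 and bFGF, with Activin A at 100 ng/ml in the first day only. Both were collected after 5 days. No sorting step is named in the labels. All 6 libraries came from 1 cell line. Cells of both groups were opened with NP-40 in buffers with α-amanitin (an inhibitor of RNA polymerase II), nuclei were spun through sucrose, and the supernatant was taken as cytoplasm.

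Pluripotent cells are held by a network around the transcription factors POU5F1, SOX2 and NANOG, with signals from FGF2 and from activin or Nodal. Activin, a ligand of the transforming growth factor β family, acts through the receptors ACVR1B and ACVR2A or ACVR2B and the transcription factors SMAD2 and SMAD3. Together with Wnt signalling it takes pluripotent cells through a primitive streak state, marked by TBXT, MIXL1 and EOMES, to definitive endoderm, marked by SOX17, FOXA2, GATA4 and GATA6. The mRNA in cytoplasm is mostly mature, so it is close to what ribosomes can read.

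Transcript counts were summed per Ensembl gene and are given as CPM, a gene's counts scaled so that the counts on Ensembl genes have the same total in every library. The count files of the 2 cell types list different transcripts, because each cell type has its own transcript assembly. Of the genes, 11760 were listed in both tables, 1884 in the endoderm table only and 3355 in the hPSC table only. A gene that a table does not list has no value there, which is not a value of 0, so genes of 1 table are given with their levels and without a fold or a test. Endoderm libraries held 18360084, 16443886 and 15955662 counts, and hPSC libraries 8329295, 14962624 and 15073269. The first hPSC library stood apart: it had the lowest depth, and chi-square per degree of freedom against the other 2 hPSC libraries was 53.4 and 67.2, against 7.09 between those 2 and 14.5 to 22.5 between endoderm libraries. In that library, 0.0177% of counts lay on nuclear rRNA loci, against 1.28% to 3.74% in the other 5, and 0.911% of counts lay on transcripts without an Ensembl gene, against 2.09% to 9.36%. Counts on mitochondrial genes made up 0.432% to 0.475% of an endoderm library and 0.441% to 0.621% of an hPSC library. MALAT1, a nuclear RNA, stood at 117, 176 and 95.5 CPM in endoderm and 239, 278 and 226 CPM in hPSC, with all endoderm libraries lower. The labels do not say that replicates were separate cultures, so p-values measure only the spread between these libraries.

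Of 11449 genes with enough counts, 5832 (50.9%) differed between endoderm and hPSC cytoplasm at an adjusted p under 0.05, the threshold used throughout (edgeR's quasi-likelihood test, Benjamini-Hochberg adjustment over all genes tested). Of these, 2986 (26.1% of genes tested) rose in endoderm and 2846 (24.9%) fell. The rise or fall was at least 2-fold in 2345 genes (20.5%), and the libraries of the groups did not overlap in 6961 (60.8%). Endoderm libraries were all above hPSC in 36.2% and all below in 24.6%, and 10.9% of genes rose and 9.61% fell by at least 2-fold. Called genes had a median absolute log2 change of 0.84 and a median standard error (SE) of 0.17. Changes are endoderm minus hPSC on the log2 scale, given with their SE. The median over all genes tested was -0.01. On the authors' TPM (a length-corrected share of the library) that median moved to 0.26 on the log2(TPM + 1) scale, and 74.7% of 5596 calls were rises, against 51.2% in the count test. In bulk RNA, fewer cells of a type and less RNA per cell cannot be told apart. Counts of the gene lists below are to be read beside the shares over all genes tested, 26.1% rising and 24.9% falling. The lists were chosen with earlier results of these data known, so a high share in any of them may come from that choice.

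Pluripotency genes were lower in endoderm cytoplasm on the whole, but none of the 29 tested was at 0 there. Of those 29 genes, 18 fell and 4 rose, with a median log2 change of -0.79. POU5F1, the central pluripotency factor (chromosome 6, 31164337 to 31180731, GRCh38), stood at 1577, 1808 and 2043 CPM in endoderm and 3613, 2964 and 2817 CPM in hPSC. Every endoderm library was below every hPSC library (log2 change -0.91 ± 0.19, adjusted p = 0.0028). The change was -0.73 without the first hPSC library.

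Within the pluripotency list, the largest falls were in a pair of noncoding RNAs and a kinase. LINC00678, a long noncoding RNA, stood at 49.5, 99 and 85.3 CPM in endoderm and 476, 488 and 432 CPM in hPSC (log2 change -2.69 ± 0.24, adjusted p = 7.2e-06). ESRG, a noncoding RNA abundant in pluripotent cells, stood at 199, 574 and 596 CPM in endoderm and 1825, 1764 and 1946 CPM in hPSC (log2 change -2.12 ± 0.35, adjusted p = 0.00058). LCK, a Src-family kinase best known from T cells, stood at 6.56, 25 and 28.8 CPM in endoderm and 83, 90.5 and 97.9 CPM in hPSC (log2 change -2.28 ± 0.40, adjusted p = 0.00091). In all 3 the groups did not overlap, and the first endoderm library was the lowest. Transcripts whose Ensembl ID is listed in both tables held 42.1% of endoderm and 15.1% of hPSC counts of LINC00678, 0% and 19.9% of ESRG, and none of LCK. DNMT3B, the de novo DNA methyltransferase of pluripotent cells, stood at 419, 849 and 845 CPM in endoderm and 1507, 1745 and 2134 CPM in hPSC (log2 change -1.45 ± 0.26, adjusted p = 0.001). Its groups did not overlap either, with the first endoderm library well below the other 2. THY1 (-1.97 ± 0.32), a surface protein, and the telomere-binding protein TERF1 (-1.62 ± 0.22) fell too. So did PHC1, a Polycomb protein (-1.45 ± 0.23), SFRP2, a secreted Wnt antagonist (-1.44 ± 0.20), DPPA4 (-1.42 ± 0.20), ZSCAN10 (-1.23 ± 0.21), PRDM14 (-1.19 ± 0.31) and L1TD1 (-1.01 ± 0.17). Smaller falls were called for TDGF1, the Nodal co-receptor (-0.79 ± 0.16), VRTN (-0.44 ± 0.15) and NANOG (-0.58 ± 0.16). VRTN was called in 2 of the 6 fits without 1 library, those without the third endoderm or the first hPSC library. NANOG libraries overlapped between the groups, at 57.6, 61.8 and 58.6 CPM in endoderm and 57.2, 95.6 and 95.4 CPM in hPSC, the first hPSC library being as low as endoderm. USP44 (-2.01 ± 0.31) and CD24 (-0.63 ± 0.16) fell as gene sums, but over transcripts listed in both tables they rose, with log2 changes of 3.13 and 4.44. Of their hPSC counts, 2.96% and 2.88% lay on those transcripts. NANOG gave 0.30 and was not called on that basis, whereas POU5F1, with all counts on transcripts of both tables, gave -0.94. Over such transcripts 7 of 27 pluripotency genes rose and 13 fell.

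Other members did not pass the test. LIN28A, an RNA-binding protein that blocks let-7 processing, stood at 2402, 2439.8 and 2294 CPM in endoderm and 1109, 2527 and 2570.1 CPM in hPSC. The first hPSC library was far below the other 2, and endoderm lay just under those 2 (log2 change 0.11 ± 0.25, adjusted p = 0.74; without the first hPSC library the change was -0.16, also not called). LIN28B (-0.21 ± 0.16), ZFP42 (-0.33 ± 0.13), SALL4 (-0.14 ± 0.22), ZIC2 (-0.27 ± 0.12) and GDF3 (0.85 ± 0.33) were not called either. Over transcripts of both tables, which held 22.9% of its hPSC counts, LIN28B gave 1.96. The 4 that rose were NODAL (2.49 ± 0.25), FGF4 (1.44 ± 0.33), PODXL (1.02 ± 0.18) and LINC00458 (0.81 ± 0.20). NODAL, the ligand that activin stands in for, rose from 2.54, 2.06 and 1.51 CPM in hPSC to 13.8, 11.5 and 11.1 CPM in endoderm. PODXL, a sialomucin, had 1493, 1356 and 1209 CPM in endoderm and 452, 651 and 768 CPM in hPSC.

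The hPSC table alone listed 10 pluripotency genes. SOX2 stood at 199, 199 and 209 CPM in the hPSC libraries and FGF2 at 169, 157 and 171 CPM. IDO1, a tryptophan-degrading enzyme, stood at 63.5, 60.1 and 60.1 CPM and SCGB3A2 at 62.4, 32.6 and 32 CPM, the first library being the highest for the latter. FOXD3 and UTF1 lay between 24.6 and 33.8 CPM, DPPA2 between 10.2 and 12.7 CPM, and KLF4, HHLA1 and LINC-ROR at or under 2.81 CPM. The endoderm table gives no level for any of these. Summed over the members each table lists, pluripotency genes came to 10067, 12458 and 11889 CPM in endoderm (29 genes). In hPSC they came to 16794, 19031 and 19940 CPM (39 genes), so the sums do not cover the same genes.

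**Figure D1:**
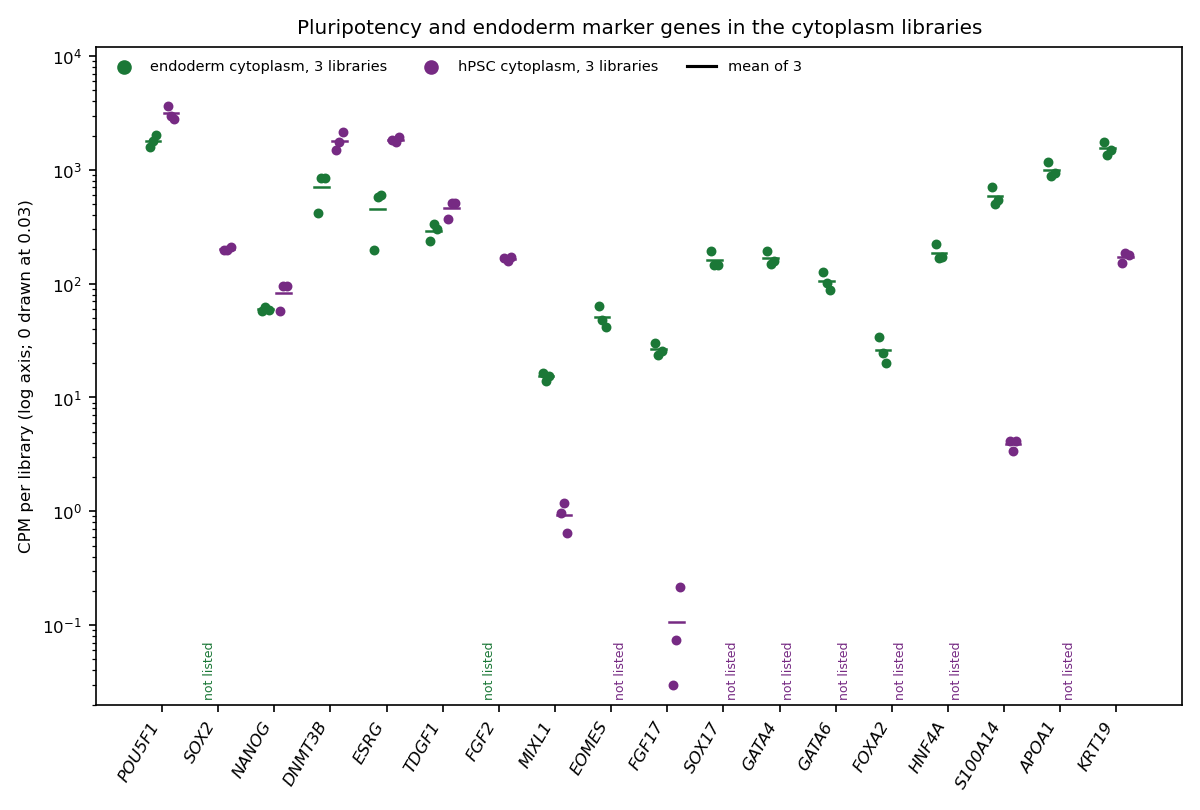
CPM in each of the 3 endoderm (green) and 3 hPSC (purple) cytoplasm libraries for 18 marker genes, on a log axis, with the mean of 3 as a line. "Not listed" marks a gene without a value in that cell type's table, and POU5F1, DNMT3B and ESRG lie lower in endoderm while MIXL1, S100A14 and KRT19 lie higher.

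Primitive streak genes were present in endoderm cytoplasm, at low to moderate levels. All 4 members tested rose, with a median log2 change of 4.68. FGF17, a ligand of the FGF8 subfamily, stood at 30.2, 23.7 and 25.6 CPM in endoderm and 0, 0.0737 and 0.216 CPM in hPSC (log2 change 7.69 ± 0.35, adjusted p = 8.3e-08). MIXL1, a homeobox factor, stood at 16.4, 13.9 and 15.6 CPM in endoderm and 0.969, 1.18 and 0.648 CPM in hPSC (log2 change 3.93 ± 0.26, adjusted p = 8.3e-07). WNT3, a Wnt ligand, stood at 11, 10.4 and 7.37 CPM in endoderm and 0.727, 0.442 and 0.72 CPM in hPSC (log2 change 3.84 ± 0.31, adjusted p = 4.3e-06). LHX1, a LIM homeobox factor, stood at 6.34, 4.9 and 5.19 CPM in endoderm and 0, 0 and 0.288 CPM in hPSC (log2 change 5.43 ± 0.58, adjusted p = 3.1e-05). The hPSC libraries were all near 0 and the groups did not overlap in any of the 4. A further 6 were listed in the endoderm table only. EOMES, a T-box factor, stood at 64.3, 48.1 and 41.5 CPM and SP5, a Wnt target, at 90.7, 61.7 and 60.7 CPM. EVX1 had 13.9, 8.23 and 11.5 CPM, and TBXT (brachyury), which defines the streak, only 6.23, 4.08 and 4.87 CPM. GSC and FGF8 were at or under 3.27 CPM.

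The defining factors of definitive endoderm were present in the endoderm libraries, and most of them are listed in the endoderm table only. SOX17, the defining SOX factor, stood at 193, 146 and 145 CPM in the 3 endoderm libraries. GATA4 had 192, 150.3 and 157 CPM and GATA6 128, 100.3 and 88.5 CPM. FOXA2, a forkhead pioneer factor, stood at 33.7, 24.7 and 20.2 CPM. HNF4A, a nuclear receptor of liver and gut, had 225, 167 and 171 CPM. The surface receptor CXCR4, often used to sort definitive endoderm, was at 4.84, 4.21 and 3.14 CPM, and CER1, a secreted Nodal antagonist of anterior endoderm, at 8.73, 6.72 and 6.09 CPM. HHEX, KLF5, CD177, LGR5 and DKK1 lay between 2.37 and 6.84 CPM, and LINC00261 between 13.5 and 21.2 CPM. In each of SOX17, GATA4, GATA6, FOXA2 and HNF4A the first endoderm library was the highest, the reverse of its order for DNMT3B and ESRG.

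Of 9 definitive endoderm genes in both tables, 6 rose (66.7%) and 1 fell (11.1%), with a median of 0.54. The shares over all genes tested were 26.1% and 24.9%. S100A14, a calcium-binding protein, stood at 706, 503 and 542 CPM in endoderm and 4.12, 3.39 and 4.18 CPM in hPSC (log2 change 7.12 ± 0.21, adjusted p = 1.1e-08). Its relative S100A16 stood at 283, 232 and 258 CPM in endoderm and 32.7, 25.3 and 23.7 CPM in hPSC (log2 change 3.13 ± 0.18, adjusted p = 3.3e-07), and PRDM1, a transcriptional repressor, at 22, 19.6 and 14.7 CPM in endoderm and 0.606, 0.369 and 0.576 CPM in hPSC (log2 change 5.09 ± 0.29, adjusted p = 3.2e-07). FOXA3 (0.46 ± 0.12), KIT (0.70 ± 0.18) and STC1 (0.54 ± 0.17) rose by smaller amounts from levels already present in hPSC. The call of FOXA3 was lost without the second hPSC library, and that of STC1 without the second endoderm or the second hPSC library. PRDM1 had no transcript listed in both tables. OTX2, a homeobox factor, fell from 58.8, 58.1 and 68.3 CPM to 25.9, 35.5 and 39 CPM (log2 change -0.99 ± 0.16, adjusted p = 0.00066). ELF3 and CYP26A1 were not called (-0.02 ± 0.19 and -0.06 ± 0.17). SHISA2 was listed in the hPSC table only, at 7.39, 11.6 and 9.15 CPM. Summed over the members each table lists, the level was 1790 to 2304 CPM in endoderm (24 genes) and 194 to 213 CPM in hPSC (10 genes). These sums cover different genes, so they do not measure a change.

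Simple-epithelium keratins and other later endoderm genes were high. All 5 members tested rose, with a median of 3.05. KRT8 and KRT18, which pair in simple epithelia, stood at 3351, 2587 and 2915 CPM in endoderm and 352, 456 and 435 CPM in hPSC (log2 change 2.73 ± 0.17, adjusted p = 6.1e-07) and at 1433, 1100.2 and 1258 CPM in endoderm and 403, 479 and 440.1 CPM in hPSC (log2 change 1.41 ± 0.15, adjusted p = 2.9e-05). KRT19 had 1768, 1361 and 1502 CPM in endoderm and 152, 186 and 178 CPM in hPSC (log2 change 3.05 ± 0.16, adjusted p = 1.8e-07). The keratin levels did not overlap between the groups. VIL1 (villin, of microvilli) stood at 96.6, 76.4 and 84 CPM in endoderm and 6.91, 9.22 and 8.07 CPM in hPSC (log2 change 3.29 ± 0.15, adjusted p = 8.9e-08). TBX3, a T-box factor of early liver and of pluripotent cells, stood at 152, 129 and 103 CPM in endoderm and 0, 0.0737 and 0.072 CPM in hPSC. With 2 hPSC counts in all, the ratio of its counts was 2299.7 with an exact 95% interval of 636 to 18993 that covers counting error only (adjusted p = 1.1e-08). Among genes of the endoderm table only, APOA1, the main protein of high-density lipoprotein, stood at 1179, 888 and 942 CPM and APOA2 at 87.7, 68.1 and 80.8 CPM. FGA and CDX2 lay between 5.38 and 10.0 CPM. For AFP, ALB and TTR neither table gives a value. In mesoderm cytoplasm the means were 3962 CPM for KRT8, 737 CPM for KRT19, 73.7 CPM for TBX3 and 7.7 CPM for VIL1. KRT8 was higher there than in endoderm.

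Markers of other cell types moved as well. Of 8 extraembryonic endoderm genes tested, 7 rose and none fell (median 1.87), and 4 of the 7 were basement membrane genes: LAMB1 (3.19 ± 0.18), LAMA1 (2.63 ± 0.15), COL4A1 (2.57 ± 0.15) and COL4A2 (1.93 ± 0.15). COL4A1 had the opposite sign on the authors' TPM, with a change of -1.66 on the log2(TPM + 1) scale. NID2 was not called (0.14 ± 0.23). DAB2, which with GATA6 and HNF4A is shared by visceral endoderm, had 155, 121 and 115 CPM in the endoderm table only. CUBN was at 0 in all hPSC libraries and has no value for endoderm. Each table lists 11 of these genes, not all the same ones, with a summed level of 2187 to 2802 CPM in endoderm and 509 to 614 CPM in hPSC.

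Among 9 mesoderm genes 5 rose (55.6%) and 3 fell (33.3%), with a median of 1.37. The shares over all genes tested were 26.1% and 24.9%. HAPLN1, a hyaluronan link protein, stood at 22.9, 20.2 and 20.4 CPM in endoderm and 0.848, 0 and 0.216 CPM in hPSC (log2 change 6.07 ± 0.47, adjusted p = 2.8e-06). BMP4 rose (5.24 ± 0.20), as did PDGFRB (2.42 ± 0.24), PDGFRA (1.37 ± 0.30) and ACTC1 (1.91 ± 0.16), whereas DLL3 (-2.34 ± 0.39), TBX6 (-1.55 ± 0.29) and KDR (-0.67 ± 0.16) fell. COL1A1 was not called (-0.23 ± 0.15), and COL3A1, in the hPSC table only, was at 0 in all its libraries. HAND1, a factor of lateral and extraembryonic mesoderm, had 73.9, 56.3 and 48.6 CPM in the endoderm table only, NKX2-5 and TBX20 were at or under 0.628 CPM, and FOXF1 was near 2 CPM. The summed mesoderm level was 584 to 682 CPM over the 16 genes of the endoderm table. It was 181 to 217 CPM over the 12 genes of the hPSC table, which are not all the same genes.

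No amnion or trophoblast gene was listed in both tables, where 6 were in the endoderm table only and 5 in the hPSC table only, with summed levels of 243 to 319 CPM and 49.2 to 56.1 CPM. In the endoderm table, GATA3 had 157, 126 and 128 CPM, TFAP2A 45.8, 39.7 and 37.1 CPM and GATA2 23.3, 18.9 and 16.5 CPM, with ISL1 and CDX2 between 5.77 and 10.3 CPM. In the hPSC table, KRT7 had 31.5, 29.4 and 26.1 CPM and VTCN1 was at 0 in 2 libraries. Of 5 neuroectoderm genes, CDH2 rose, NES (-0.52 ± 0.12) and ZNF521 (-0.49 ± 0.18) fell, and NCAM1 and OTX1 were not called. A single fall was called when any 1 library other than the third endoderm one was left out. NES gave 0.27 on log2(TPM + 1), where the list's median also turned positive (0.09). The summed neuroectoderm level was 323 to 361 CPM in endoderm (7 genes listed) and 354 to 407 CPM in hPSC (9 genes listed, not all the same). PAX6, in the endoderm table only, was at or under 2.34 CPM. Of 12 HOX genes looked for, HOXB2, HOXB5 and HOXD1 had an endoderm value, at most 4.45 CPM, and none was in the hPSC table. What part cells of these types had in the results was not tested.

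**Figure D2:**
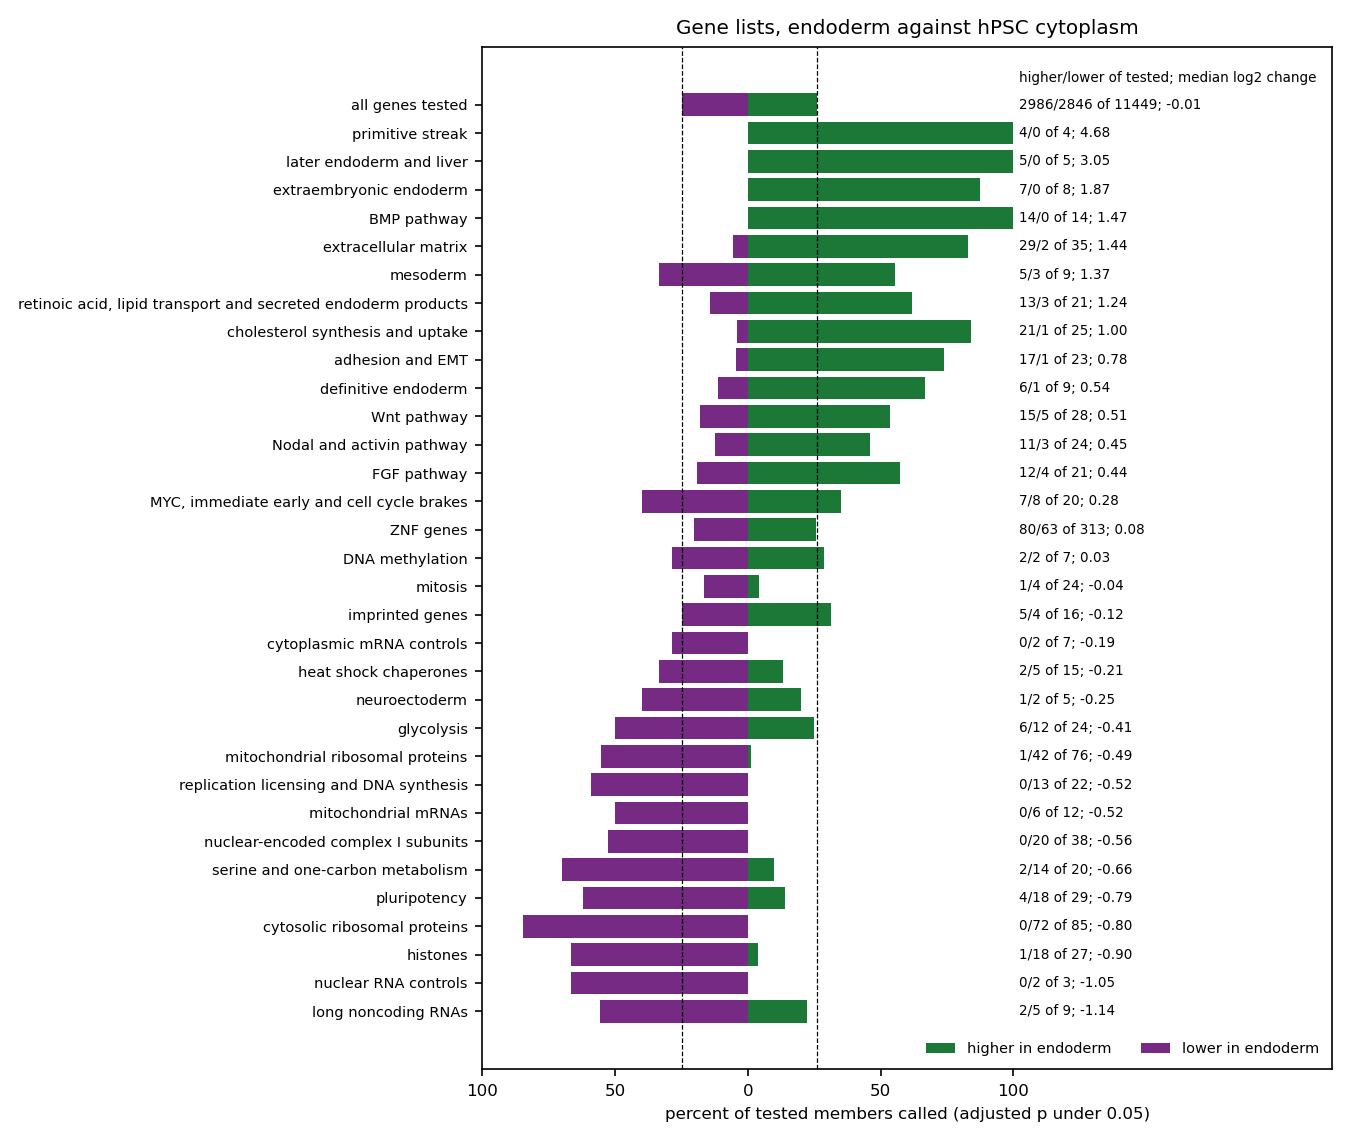
Percent of the tested members of each gene list called higher (green, right) or lower (purple, left) in endoderm cytoplasm, with the counts and the median log2 change at the right; dashed lines are the shares over all genes tested, 26.1% higher and 24.9% lower. All 14 BMP pathway genes lie on the higher side, and 72 of 85 cytosolic ribosomal protein genes on the lower side.

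Of 24 Nodal and activin pathway genes, 11 rose (45.8%) and 3 fell (12.5%), beside 26.1% and 24.9% of all genes tested. The median was 0.45, and antagonists were among the members that rose most. BAMBI, a decoy receptor, stood at 291, 220.1 and 208 CPM in endoderm and 14.8, 12.1 and 14 CPM in hPSC (log2 change 4.03 ± 0.18, adjusted p = 6e-08). FST, the activin-binding protein follistatin, stood at 127, 97 and 85 CPM in endoderm and 5.45, 9.51 and 10.9 CPM in hPSC (log2 change 3.45 ± 0.22, adjusted p = 6.7e-07). SMAD7, an inhibitory SMAD, stood at 69.9, 54.9 and 53.8 CPM in endoderm and 4.12, 8.26 and 7.49 CPM in hPSC (log2 change 3.03 ± 0.21, adjusted p = 1.2e-06). The groups were far apart for all 3 of these antagonists. FURIN (2.51 ± 0.14) and PCSK6 (1.96 ± 0.25), convertases that cleave Nodal precursors, rose as well, as did PMEPA1 (0.99 ± 0.21), SKIL (0.53 ± 0.19), SMURF1 (0.70 ± 0.14) and SMURF2 (0.65 ± 0.15). Among receptors ACVR1B rose (0.85 ± 0.15) while ACVR2A and ACVR2B were not called (-0.06 ± 0.25 and 0.02 ± 0.16). The transducers SMAD2 (0.25 ± 0.11), SMAD3 (0.37 ± 0.14) and FOXH1 (-0.16 ± 0.14) were not called, nor was TGIF1, a corepressor (0.02 ± 0.13), and SMAD4 (-0.37 ± 0.12), DRAP1 (-0.69 ± 0.17) and TDGF1 fell. LEFTY1 and LEFTY2, feedback inhibitors of Nodal, were below the count filter, at most 0.89 CPM in any library. SKIL was called in 2 and SMAD4 in 1 of the 6 fits without 1 library; both kept the call without the first hPSC library, and SKIL also without the third endoderm library. On TPM 18 of the 24 rose and 2 fell, where 4182 rises and 1414 falls were called over all genes tested.

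Of 28 Wnt pathway genes, 15 rose (53.6%) and 5 fell (17.9%), with a median of 0.51. The shares over all genes tested were 26.1% and 24.9%. WLS, which carries Wnt ligands out of the cell, stood at 179, 130.4 and 129 CPM in endoderm and 0.969, 0.737 and 1.37 CPM in hPSC (log2 change 7.03 ± 0.24, adjusted p = 1.5e-08). TCF7, a nuclear partner of β-catenin, stood at 25.9, 25.3 and 22.6 CPM in endoderm and 0, 0.442 and 0.36 CPM in hPSC (log2 change 6.20 ± 0.33, adjusted p = 2.4e-07). The receptor FZD4 stood at 225, 184 and 147 CPM in endoderm and 5.82, 9.81 and 9.36 CPM in hPSC (log2 change 4.34 ± 0.21, adjusted p = 1e-07). None of these 3 was above 10 CPM in any hPSC library. FRZB, a secreted antagonist (3.77 ± 0.19), RNF43, which removes Wnt receptors from the surface (3.20 ± 0.25), PORCN, which acylates Wnts (2.41 ± 0.14), FZD1 (2.54 ± 0.30), AMOTL2 (2.26 ± 0.14) and DKK3 (1.82 ± 0.14) rose too. ZNRF3, the relative of RNF43, fell (-1.47 ± 0.22), as did FZD5 (-1.28 ± 0.16), SFRP2, TCF7L1 (-0.50 ± 0.14) and TCF7L2 (-0.55 ± 0.11). CTNNB1, which encodes β-catenin, had 538, 519 and 499 CPM in endoderm and 188, 393 and 417 CPM in hPSC and was not called (log2 change 0.55 ± 0.22, adjusted p = 0.063), and AXIN2, a common Wnt target, had 28.1, 29 and 27.5 CPM in endoderm and 23.4, 26.5 and 30.0 CPM in hPSC (log2 change -0.03 ± 0.13, adjusted p = 0.88). SFRP1 was not called (-0.36 ± 0.17). The call of TCF7L1 was lost without the first endoderm library, and TCF7 had no transcript listed in both tables. Of 20 with transcripts of both tables, 8 rose and 3 fell over those, and on TPM 17 rose and 1 fell.

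All 14 BMP pathway genes tested rose, with a median of 1.47, against 26.1% of all genes tested. This list too was chosen with earlier results of these data known. MSX2, a homeobox target of BMP, stood at 135, 103 and 102 CPM in endoderm and 1.33, 0.147 and 0.576 CPM in hPSC (log2 change 7.45 ± 0.36, adjusted p = 1.1e-07). The ligand BMP4 stood at 152, 119 and 124 CPM in endoderm and 4.12, 3.1 and 2.74 CPM in hPSC (log2 change 5.24 ± 0.20, adjusted p = 2.7e-08), and the extracellular modulator BMPER at 19.4, 18.8 and 15.1 CPM in endoderm and 1.45, 0.516 and 0.792 CPM in hPSC (log2 change 4.26 ± 0.30, adjusted p = 1.6e-06). ID1, ID2 and ID3, direct targets of BMP-activated SMADs, rose by 1.66 ± 0.19, 2.75 ± 0.21 and 1.06 ± 0.23. ID1 stood at 803, 603 and 692 CPM in endoderm and 249, 181 and 178 CPM in hPSC, with the groups apart. Receptors BMPR1A (0.69 ± 0.15), BMPR2 (2.11 ± 0.18) and ACVR1 (1.27 ± 0.18), the transducers SMAD1 (0.53 ± 0.17) and SMAD5 (0.71 ± 0.17), the ligand BMP7 (1.00 ± 0.17) and TWSG1 (0.85 ± 0.19) rose too, as did BAMBI, which this list shares with the Nodal pathway. BMP2 (137, 118 and 92.8 CPM), the inhibitory SMAD6 (172, 130.3 and 125 CPM) and the antagonist NOG (11.7, 7.47 and 7.5 CPM) were listed in the endoderm table only, and ID4 in the hPSC table only (24.5, 23.2 and 23.9 CPM). The labels name no BMP ligand among the factors added for endoderm. BMPER had no transcript listed in both tables. All 14 rose on TPM and without the first hPSC library, 13 without the first or the second endoderm or the second hPSC library, where SMAD1 was lost, and 11 of 12 over transcripts of both tables.

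In the FGF pathway 12 of 21 genes rose and 4 fell (median 0.44), and on TPM 13 rose and 2 fell. FGFR4, a receptor of gut endoderm, stood at 209.9, 172 and 176 CPM in endoderm and 35.3, 46.7 and 47 CPM in hPSC (log2 change 2.00 ± 0.13, adjusted p = 1e-06). FGFR1 stood at 891, 806 and 814 CPM in endoderm and 303, 343 and 393 CPM in hPSC (log2 change 1.17 ± 0.13, adjusted p = 4.8e-05), and FGFR3 (248, 205 and 183 CPM) was listed in the endoderm table only. DUSP4, a phosphatase induced by ERK, rose (1.56 ± 0.18), as did SPRED2 (1.16 ± 0.15), SPRY2 (0.71 ± 0.12) and IL17RD (1.13 ± 0.26). FGF11 (-1.60 ± 0.19), ETV4 (-1.20 ± 0.15), SPRY1 (-0.78 ± 0.17) and SPRY4 (-0.71 ± 0.13) fell. The ERK feedback genes thus did not move one way, and DUSP6 (-0.29 ± 0.13) and SPRED1 (0.35 ± 0.16) were not called.

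**Figure D3:**
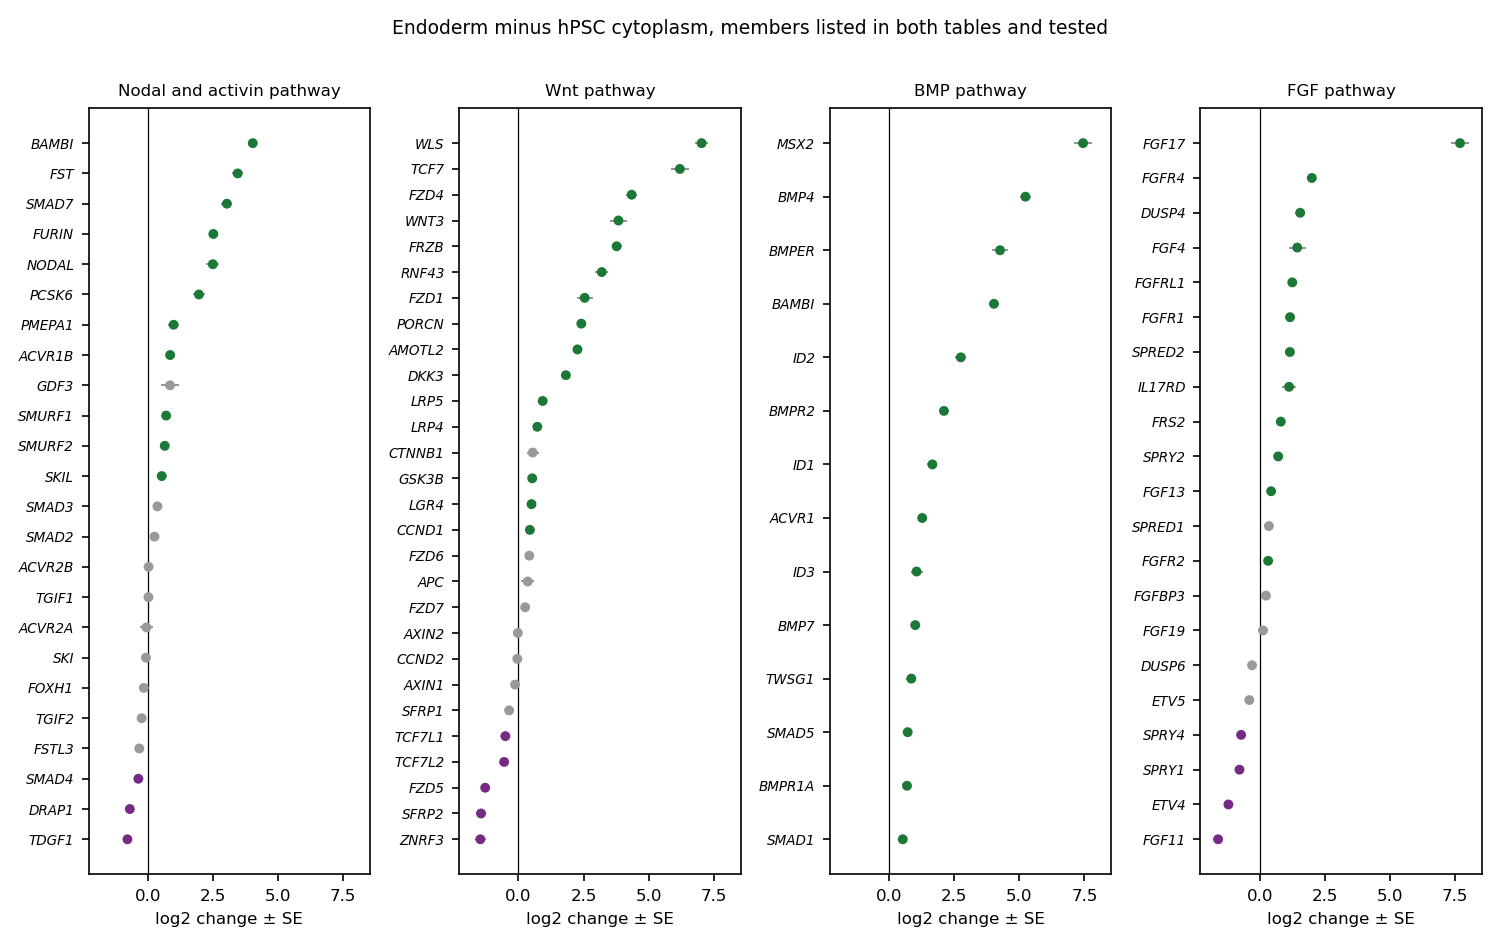
Log2 change (endoderm minus hPSC cytoplasm, horizontal axis, with SE) of each tested member of 4 signalling pathways; green points rose, purple points fell and grey points did not pass the test. Every BMP pathway point is green, while the other 3 panels hold all 3 colours.

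Extracellular matrix genes rose broadly: 29 of 35 rose and 2 fell, with a median of 1.44. FN1 (fibronectin, chromosome 2, 215360440 to 215436172, GRCh38) stood at 1323, 1081 and 1034 CPM in endoderm and 13.7, 20.3 and 22 CPM in hPSC (log2 change 5.83 ± 0.20, adjusted p = 1.8e-08). VCAN (versican), a hyaluronan-binding proteoglycan, stood at 154, 142 and 100.5 CPM in endoderm and 3.51, 4.57 and 4.18 CPM in hPSC (log2 change 4.89 ± 0.20, adjusted p = 3.4e-08). TNC (tenascin C) had 36.5, 32.5 and 33.8 CPM in endoderm and 1.09, 0.737 and 1.66 CPM in hPSC (log2 change 4.76 ± 0.23, adjusted p = 1.3e-07). In all 3 the lowest endoderm library was above every hPSC library. VTN (vitronectin) stood at 4.12, 3.83 and 3.4 CPM in endoderm and 0.121, 0.147 and 0 CPM in hPSC, where the hPSC libraries held 3 counts in all and the ratio of counts was 45.2 (exact 95% interval 15.2 to 221, counting error only). Collagen-modifying enzymes P4HA1 (1.95 ± 0.18), P4HA2 (0.86 ± 0.18), PLOD1 (0.63 ± 0.13) and PLOD2 (1.28 ± 0.23) rose along with the collagen chaperone SERPINH1 (1.06 ± 0.13). LAMA5 (-0.07 ± 0.11) and LOXL2 (0.03 ± 0.16) were not called, and LAMB2 (-0.44 ± 0.15) and NID1 (-0.69 ± 0.21) fell. In each fit without 1 library 29 rose, while neither fall was called without the first endoderm or the third hPSC library, LAMB2 also not without the second endoderm or the second hPSC library and NID1 not without the third endoderm library. VCAN had no transcript listed in both tables.

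Of 23 adhesion genes, 17 rose (73.9%) and 1 fell (4.35%), with a median of 0.78, beside 26.1% and 24.9% of all genes tested. CDH2 (N-cadherin) stood at 104, 92.7 and 73.9 CPM in endoderm and 4.24, 8.33 and 9.79 CPM in hPSC (log2 change 3.46 ± 0.23, adjusted p = 9.2e-07). CDH1 (E-cadherin) stood at 75.6, 79.9 and 70.3 CPM in endoderm and 52.9, 66.6 and 86.3 CPM in hPSC and was not called (log2 change 0.03 ± 0.15, adjusted p = 0.89). The libraries did not overlap for N-cadherin and did for E-cadherin. Epithelial genes rose alongside: EPCAM (1.42 ± 0.14), CLDN3 (1.29 ± 0.13), CLDN4 (1.62 ± 0.14) and GRHL2, an epithelial transcription factor (1.35 ± 0.16). So did VIM (vimentin, 1.66 ± 0.18), ITGA5, the α chain of the fibronectin receptor (2.14 ± 0.17), and LIX1L (3.33 ± 0.46). SNAI1, a repressor of E-cadherin, was not called (0.56 ± 0.24), nor was the splicing factor ESRP1 (-0.06 ± 0.11). ITGA6, a laminin receptor chain of pluripotent cells, fell (-1.09 ± 0.20).

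Of 21 genes of retinoic acid, lipid transport and secreted endoderm products, 13 rose and 3 fell (median 1.24), beside 26.1% and 24.9% of all genes tested. Like the other lists, it was chosen with earlier results of these data known, so large rises in it may come from that choice. CST1, a secreted cystatin, stood at 257, 192 and 222 CPM in endoderm and 0.363, 0.295 and 0.072 CPM in hPSC (log2 change 9.81 ± 0.29, adjusted p = 1.1e-08). CCKBR, the gastrin receptor, stood at 144, 112 and 121 CPM in endoderm and 2.91, 2.51 and 1.58 CPM in hPSC (log2 change 5.69 ± 0.22, adjusted p = 3.1e-08). SERPINE2, a protease inhibitor, stood at 673, 564 and 484 CPM in endoderm and 18.5, 19.8 and 22.5 CPM in hPSC (log2 change 4.71 ± 0.16, adjusted p = 1.8e-08). All 3 were at 22.5 CPM or less in hPSC. NTS (neurotensin, 3.06 ± 0.22), S100A10 (2.92 ± 0.27), ANXA3 (2.53 ± 0.15), APOC1 (2.51 ± 0.36) and APOE (1.43 ± 0.20) rose too. APOE counts were 1238, 909.9 and 1026 CPM in endoderm and 439.7, 332 and 305 CPM in hPSC. CRABP1, a retinoic acid carrier, fell (-1.37 ± 0.23), as did C3 (-1.41 ± 0.28) and SEMA3E (-0.57 ± 0.16), whose call was lost without the first endoderm library. CRABP2 (-0.07 ± 0.15) and VEGFA (-0.12 ± 0.14) were not called, and VEGFA gave 0.65 on log2(TPM + 1).

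Genes of cholesterol synthesis and uptake rose together, with 21 of 25 rising and 1 falling (median 1.00). MSMO1, a sterol demethylase, stood at 199.99, 173 and 129.8 CPM in endoderm and 18.1, 30.0 and 28.7 CPM in hPSC (log2 change 2.60 ± 0.20, adjusted p = 2.3e-06). HMGCS1, which makes HMG-CoA, stood at 369, 319 and 239 CPM in endoderm and 69.9, 96.3 and 98.6 CPM in hPSC (log2 change 1.70 ± 0.17, adjusted p = 1.9e-05), and DHCR7, the last step of one branch, at 124, 100.3 and 113 CPM in endoderm and 31.7, 28.4 and 35.7 CPM in hPSC (log2 change 1.70 ± 0.14, adjusted p = 3.7e-06). No endoderm library of these overlapped hPSC. SQLE, squalene epoxidase (1.41 ± 0.13), and the regulator SREBF2 (1.31 ± 0.15) rose as well. PMVK fell (-1.09 ± 0.20), and FDPS (-0.18 ± 0.12) and EBP (0.19 ± 0.13) were not called. The culture media differed between the groups (mTeSR1 against RPMI with FBS), so medium and cell type cannot be told apart. The count of rises was 21 on TPM, 19 over transcripts of both tables, and 20 to 21 when any 1 library was left out.

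Among 24 glycolysis genes 12 fell (50%), beside 24.9% of all genes tested, with a median of -0.41. The share that rose, 6 genes (25%), was near the 26.1% of all genes tested. SLC2A3, the neuronal-type glucose transporter GLUT3, stood at 1965, 1689.6 and 1303 CPM in endoderm and 148, 193 and 222 CPM in hPSC (log2 change 3.03 ± 0.19, adjusted p = 7.1e-07). SLC16A3, a lactate exporter, stood at 26.8, 20.4 and 23.3 CPM in endoderm and 3.51, 3.32 and 3.89 CPM in hPSC (log2 change 2.61 ± 0.18, adjusted p = 1.3e-06). LDHA, which makes lactate, stood at 350.3, 546 and 583 CPM in endoderm and 1112, 1186 and 1210.3 CPM in hPSC (log2 change -1.35 ± 0.20, adjusted p = 0.00028). All endoderm libraries were above hPSC for both transporters and below it for the enzyme. ALDOC (-1.06 ± 0.17), PGK1 (-0.93 ± 0.15), ALDOA (-0.73 ± 0.17), TPI1 (-0.55 ± 0.15), PGAM1 (-0.55 ± 0.14) and GAPDH (-0.51 ± 0.19) fell, and ENO1 (-0.32 ± 0.16) and PKM (-0.25 ± 0.15) were not called. SLC2A1, the other main glucose transporter, was not called (-0.35 ± 0.14). The calls of TPI1, PGAM1 and GAPDH were lost without the first endoderm library, those of TPI1 and GAPDH also without the second, and that of GAPDH without the second hPSC library. SLC16A3 had no transcript listed in both tables. There were 6 falls without the first endoderm library, 8 without the second and 4 on TPM.

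Of 20 serine, one-carbon and amino-acid stress genes, 14 fell and 2 rose (median -0.66). SLC7A11, the cystine transporter, stood at 0.779, 2.07 and 1.22 CPM in endoderm and 5.82, 9.66 and 10.6 CPM in hPSC (log2 change -2.80 ± 0.35, adjusted p = 9.3e-05). CHAC1, a glutathione-degrading enzyme induced by ATF4, stood at 11.4, 28.1 and 37.5 CPM in endoderm and 131, 95.5 and 81.6 CPM in hPSC (log2 change -2.12 ± 0.37, adjusted p = 0.00087), and DDIT4, an mTORC1 inhibitor, at 41.3, 115 and 148 CPM in endoderm and 429.9, 398 and 382 CPM in hPSC (log2 change -2.10 ± 0.36, adjusted p = 0.00088). The first endoderm library was the lowest in all 3. The serine and folate enzymes PSAT1 (-1.10 ± 0.17), SHMT2 (-1.19 ± 0.16), MTHFD2 (-1.04 ± 0.17) and PHGDH (-0.50 ± 0.15) fell, as did ASNS (-0.90 ± 0.15) and TRIB3 (-1.74 ± 0.27). ATF4 itself was not called (-0.13 ± 0.15), nor was CBS (-0.17 ± 0.13). The 2 that rose form 1 transporter: SLC7A5 (2.10 ± 0.19) with 1256, 1009 and 1039 CPM in endoderm and 169, 239 and 309 CPM in hPSC, and its partner SLC3A2 (0.55 ± 0.13). The call of PHGDH was lost without the first or the second endoderm or the second hPSC library. On TPM 9 of the 20 fell.

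Replication genes fell and mitosis genes mostly did not pass the test. Of 22 replication genes 13 fell and none rose (median -0.52). PCNA, the polymerase clamp, stood at 179, 203 and 221 CPM in endoderm and 387, 339 and 331 CPM in hPSC (log2 change -0.93 ± 0.15, adjusted p = 0.00053). GINS2 (-0.79 ± 0.15), CDC45 (-0.76 ± 0.16), GMNN (-0.75 ± 0.16), MCM7 (-0.72 ± 0.14) and MCM5 (-0.72 ± 0.15) fell, while MCM4 (-0.09 ± 0.16) and MCM6 (-0.05 ± 0.13) were not called. On TPM 6 fell and 1 rose. Of 24 mitosis genes 4 fell (16.7%) and 1 rose (4.17%), beside 24.9% and 26.1% of all genes tested. The falls were led by CENPE (-1.69 ± 0.28) with AURKB (-0.45 ± 0.15) and BUB1B (-0.40 ± 0.11), and KIF20A rose (0.55 ± 0.13). TOP2A (0.16 ± 0.17) and CDC20 (-0.27 ± 0.13) were not called. Without the first hPSC library 6 fell and 4 rose, and 1 or 2 fell without the first or second endoderm or the second hPSC library. The calls of AURKB and BUB1B were lost without the first endoderm library, that of AURKB also without the second, and that of BUB1B without the second hPSC library. The mitosis median, -0.04, turned to 0.21 on log2(TPM + 1).

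Among MYC, immediate early and cell cycle brake genes 7 of 20 rose (35%) and 8 fell (40%), beside 26.1% and 24.9% of all genes tested. CDKN1C, the imprinted cell cycle inhibitor p57, stood at 189.6, 138 and 128 CPM in endoderm and 1.7, 0.885 and 1.22 CPM in hPSC (log2 change 6.85 ± 0.25, adjusted p = 2.5e-08). MYC stood at 16, 30.2 and 30.7 CPM in endoderm and 63.5, 71.9 and 81.9 CPM in hPSC (log2 change -1.61 ± 0.22, adjusted p = 0.00022). MYCN, with 149.5, 163 and 161 CPM, was listed in the hPSC table only. IER3 rose (2.36 ± 0.24) and FOSL1 fell (-1.63 ± 0.28), and the p53 regulator MDM2 (0.48 ± 0.19) and CDKN1B (0.07 ± 0.16) were not called. Another imprinted gene, PEG10, derived from a retrotransposon, stood at 604, 507 and 383 CPM in endoderm and 71.8, 109.8 and 119.7 CPM in hPSC (log2 change 2.20 ± 0.20, adjusted p = 9e-06), IGF2 rose (6.25 ± 0.51) and PHLDA2 fell (-1.19 ± 0.25). Of 16 imprinted genes 5 rose (31%) and 4 fell (25%), near the shares over all genes tested, GRB10 (-0.24 ± 0.15) being among those not called. Of the DNA methylation genes TET1, a 5-methylcytosine oxidase, rose (0.96 ± 0.16) and DNMT3A fell (-0.50 ± 0.15). DNMT3A libraries overlapped between the groups, and the fall was called in 1 of the 6 fits without 1 library, the one without the first hPSC library. Of the same list, DNMT1 (0.03 ± 0.13) and UHRF1 (-0.25 ± 0.19) were not called. TET3 rose (0.35 ± 0.12) by counts, was called in 2 of those 6 fits (without the third endoderm or the first hPSC library) and gave -0.18 on log2(TPM + 1). Of 15 heat shock chaperones 5 fell (33.3%), not far from the 24.9% of all genes tested, and 2 rose (13.3%), beside 26.1%. The falls were led by HSPB1 (-1.20 ± 0.27) and HSPE1 (-0.89 ± 0.24), and 3 fell without the first or the second endoderm library or the third hPSC library. BAG3 (1.01 ± 0.15) and HSPA5, the chaperone of the endoplasmic reticulum (0.78 ± 0.12), rose, while HSP90AA1 (0.21 ± 0.19) and HSPA8 (-0.21 ± 0.14) were not called.

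Cytosolic ribosomal protein mRNAs were lower in endoderm cytoplasm as a group. Of 85 tested, 72 fell and none rose, with a median of -0.80, against 24.9% of all genes tested. These mRNAs are among the most abundant of any cell, and many begin with a 5′ terminal oligopyrimidine tract, a C followed by a run of C and T, through which the cell controls their translation. The first 20 transcribed bases of 6 abundant members with such a start are shown 5′ to 3′, because the tract lies in them. The 6 are examples and not a ranking of all members. Capitals mark the C at the RefSeq gene start and the unbroken run of C and T after it (RefSeq, GRCh38.p14).
RPLP0, chr12:120201092-120201111, minus strand: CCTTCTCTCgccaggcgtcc
RPL13A, chr19:49487608-49487627, plus strand: CTTTTCCaagcggctgccga
RPSA, chr3:39406720-39406739, plus strand: CTTTTCCgtgctacctgcag
RPS3, chr11:75399518-75399537, plus strand: CCTTTCCTTTCagcggagcg
RPL7A, chr9:133348218-133348237, plus strand: CTTTCTCTCTCCTCCCgccg
RPS3A, chr4:151099628-151099647, plus strand: CCCTTTTggctctctgacca

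A C at the gene start followed by at least 4 bases that are each C or T was found in 44 of 68 ribosomal protein genes with a RefSeq window (64.7%), and in 1104 of 27305 gene windows in all (4.04%). The window's strand was the gene's own, and a different start site would give different letters. Of the 44 with such a start 39 fell (median -0.84), of the 24 without it 19 fell (median -0.70), and of 17 with no window 14 fell (median -0.80). Among 456 other tested genes with such a start, 113 rose and 100 fell (median -0.02), near the shares over all genes. No difference between these groups of genes was tested.

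Of the 6 genes shown, RPLP0 stood at 3473, 3448 and 4187 CPM in endoderm and 5797, 4889.6 and 4462 CPM in hPSC (log2 change -0.57 ± 0.19, adjusted p = 0.032), a call lost without the first or the second endoderm or the second hPSC library. RPL7A (2379, 2283 and 2553 CPM in endoderm and 3502, 2595 and 2489 CPM in hPSC) and RPS3 (2408, 2320.1 and 2753 CPM in endoderm and 3967, 3061 and 2822 CPM in hPSC) were not called (adjusted p = 0.14 and 0.0501). The largest falls were in RPS27, at 431, 341 and 521 CPM in endoderm and 2315, 933 and 667 CPM in hPSC (log2 change -1.75 ± 0.42, adjusted p = 0.0058), and RPS21, at 197, 153 and 231 CPM in endoderm and 1050.2, 430.3 and 302 CPM in hPSC (log2 change -1.76 ± 0.41, adjusted p = 0.0051). RPL41 (-1.57 ± 0.33) and RPL39L, a paralog of RPL39 (-1.66 ± 0.21), fell too, and RPS2 (-0.52 ± 0.21) and RPL3 (-0.46 ± 0.19) were not called. In RPS27 and RPS21 the first hPSC library was far above the other 2. Across the 85 genes, the median log2 ratio of a library to the gene's mean over 6 libraries was -0.43, -0.45 and -0.26 in endoderm and 0.78, 0.08 and -0.09 in hPSC. The first hPSC library was the highest. Without it 76 genes fell, with a median of -0.42. Without the first, the second or the third endoderm library 27, 20 and 40 genes fell, with medians of -0.77, -0.77 and -0.88. On log2(TPM + 1) 24 fell and 6 rose, with a median of -0.40 beside 0.26 over all genes. Ribosomal protein genes have many near-identical pseudogene copies, and how reads were divided among copies is not given in the sources used here.

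**Figure D4:**
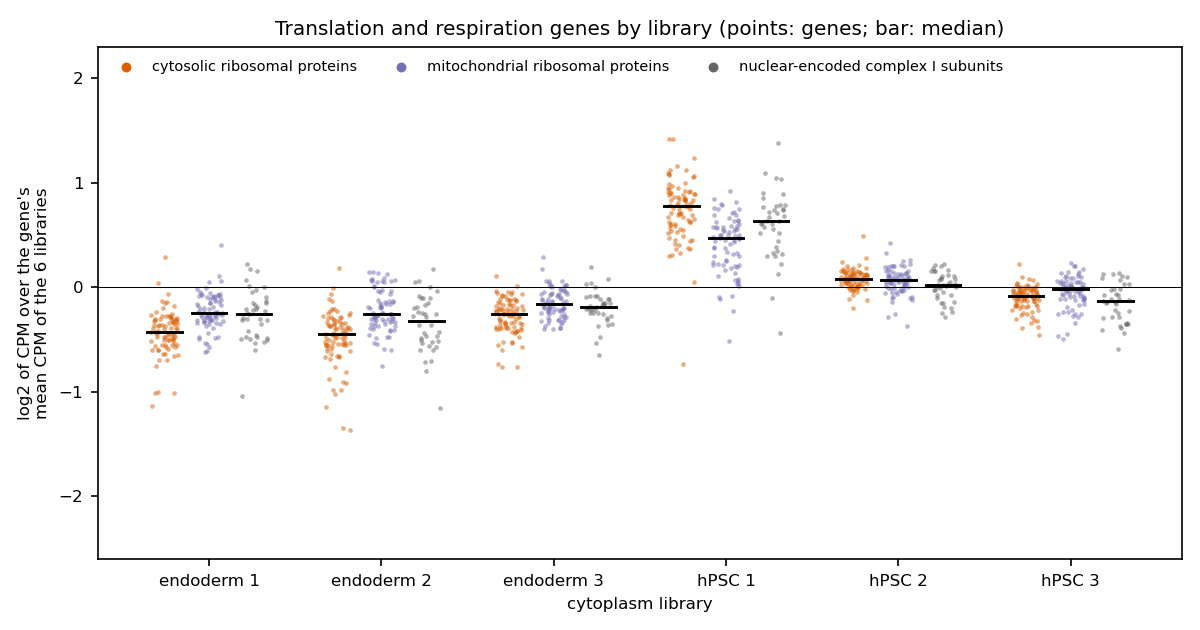
Log2 of each gene's CPM over its mean CPM of the 6 libraries, for cytosolic ribosomal protein, mitochondrial ribosomal protein and nuclear-encoded complex I genes, by cytoplasm library; points are genes and black bars are medians. The first hPSC library is highest in all 3 groups (0.78, 0.47 and 0.64), and the 3 endoderm libraries lie lowest.

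Other genes of translation and respiration went the same way. Of 76 mitochondrial ribosomal protein genes 42 fell and 1 rose (median -0.49), and without the first, the second or the third endoderm library 13, 17 and 26 fell. Without the first hPSC library 30 fell (median -0.28), and on TPM 16 fell and 9 rose. MRPL58 (-1.06 ± 0.20), MRPL54 (-0.92 ± 0.23), MRPS21 (-1.02 ± 0.23) and MRPS23 (-0.86 ± 0.18) fell most, but MRPS21 and MRPS23 had positive changes on log2(TPM + 1), of 1.71 and 1.82. MRPS6 rose (0.52 ± 0.14). Of 38 nuclear-encoded complex I genes 20 fell and none rose (median -0.56), led by NDUFB1 (-1.61 ± 0.42), NDUFA3 (-1.17 ± 0.32) and NDUFS6 (-1.08 ± 0.25). NDUFA3 had a positive change of 1.02 on log2(TPM + 1), and its call was lost without the second endoderm library. Without the first or second endoderm library 11 and 8 complex I genes fell, and without the first hPSC library 15 (median -0.24). Of 12 mRNAs of the mitochondrial genome 6 fell, MT-ND3 (-1.12 ± 0.35) and MT-CO3 (-0.74 ± 0.22) among them, while MT-ND4 (-0.15 ± 0.18) and MT-CO2 (-0.12 ± 0.18) were not called, and on TPM none fell and 1 rose. Without the second or the third endoderm library 2 fell, MT-ND3 and MT-CO3 not among them, and MT-CO3 was not called without the first either. Of 9 long noncoding RNAs of a chosen list 5 fell (55.6%) and 2 rose (22.2%), beside 24.9% and 26.1% of all genes tested. SNHG1 (-1.46 ± 0.28), GAS5 (-1.14 ± 0.23) and DANCR (-1.21 ± 0.21), each a host of small nucleolar RNAs, fell, whereas the noncoding LINC01356 rose (2.23 ± 0.23) and MIR302CHG was not called (-0.85 ± 0.36). SNHG1, GAS5 and DANCR were highest in the first hPSC library. Of 27 histone genes 18 fell, led by H2AC6 (-2.30 ± 0.40), H4C16 (-2.01 ± 0.47) and H4C2 (-1.94 ± 0.47), and 10 of 21 fell over transcripts of both tables. Zinc finger genes, 313 in number, showed 80 rises (25.6%) and 63 falls (20.1%) with a median of 0.08, near the 26.1% and 24.9% of all genes tested.

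The largest single changes were mostly in genes with no Ensembl transcript ID listed in both tables. Among genes at 10 CPM or more on average whose libraries did not overlap and which passed in every fit without 1 library, the 12 largest rises and 12 largest falls were taken. Only TBX3 and CST1 of the 12 rises, and only SLX1A of the 12 falls, had a transcript listed in both tables. For the others the 2 values may come from different transcripts of the gene. Some of those transcripts, such as those of SMCHD1, carry no Ensembl ID, so whether they are the same was not tested. BMP6, a BMP ligand, stood at 60.7, 46.4 and 44.5 CPM in endoderm and 0 in hPSC, at least 189-fold higher taking 3 counts per hPSC library as the floor. SMCHD1, a chromatin protein of X inactivation, stood at 55.6, 60.4 and 42.6 CPM in endoderm and 0, 0.0737 and 0 CPM in hPSC, a ratio of summed counts of 1894 with an exact 95% interval of 339.7 to 74853 (adjusted p = 2.7e-08). The remaining rises of the set with a gene symbol, RASGEF1B, PRICKLE2, MORC3, ELMOD2, TATDN1 and ZNF702P, rose too, at 18.2 to 51.0 CPM in endoderm libraries and at most 0.242 CPM in hPSC. MIAT, a long noncoding RNA, was at 0 in endoderm and at 228, 181 and 219 CPM in hPSC, at least 1148-fold lower in endoderm by the same floor. DOT1L, a histone methyltransferase, stood at 0.0556, 0 and 0 CPM in endoderm and 74.4, 111 and 129 CPM in hPSC, a ratio of hPSC to endoderm counts of 5423 with an exact interval of 973 to 214270.0 (adjusted p = 1.3e-08). The only endoderm transcript of DOT1L carries no Ensembl transcript ID. RESF1 (-8.02 ± 0.30), MT1X (-8.75 ± 0.59) and ZNF850 (-8.49 ± 0.52) fell too. So did HAPSTR1 and PTPN9, with hPSC to endoderm count ratios of 1617 (exact interval 447 to 13359) and 1352 (462 to 6558), and LINC01405, at 0 in endoderm and at least 196-fold lower there. SLX1A, a nuclease subunit with the near-identical copy SLX1B, was at 0 in endoderm and 40.7, 36.1 and 32.1 CPM in hPSC, at least 199-fold lower in endoderm. The genes ENSG00000280614 and ENSG00000280441 rose and ENSG00000278996 fell by large amounts, and all 3 lie on chromosome 21 at the rRNA loci, where copies are near-identical. Of the 5832 calls in all, 2932 were called the same way over transcripts of both tables, 101 the other way and 1142 not, and 1657 had no such value.

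A second set was therefore drawn by a rule chosen after these values were seen: at least 50% of a gene's counts in each group on transcripts of both tables, and the same call over those. By this rule 1090 genes rose and 686 fell. After TBX3 and CST1 the largest rises were MSX2, S100A14, WLS, TNFRSF19 (6.79 ± 0.41), HAPLN1, FN1, CCKBR, COLEC12 (5.54 ± 0.27), DLC1 (5.31 ± 0.45) and GJA4 (5.04 ± 0.22). TNFRSF19, a Wnt-responsive receptor, stood at 35.3, 26.4 and 22.1 CPM in endoderm and 0.606, 0.147 and 0.072 CPM in hPSC. GJA4, a gap junction protein, stood at 28.1, 23.5 and 26.3 CPM in endoderm and 0.848, 0.59 and 0.792 CPM in hPSC. The largest falls were smaller. REST, the repressor of neuronal genes, stood at 4.51, 8.67 and 4.23 CPM in endoderm and 40.0, 66.4 and 62.4 CPM in hPSC (log2 change -3.39 ± 0.27, adjusted p = 3.9e-06). MT2A, a metallothionein, stood at 1.00, 5.46 and 6.34 CPM in endoderm and 69.5, 27.6 and 25.2 CPM in hPSC (log2 change -3.39 ± 0.57, adjusted p = 0.00076), and CXCL12, the ligand of CXCR4, at 6.4, 8.04 and 9.74 CPM in endoderm and 41, 39.2 and 40.5 CPM in hPSC (log2 change -2.43 ± 0.18, adjusted p = 1.9e-06). The first hPSC library was high for MT2A and low for REST. PRRT2 (-3.78 ± 0.42), ZNF721 (-3.25 ± 0.19), MEF2B (-3.03 ± 0.68), RAB6B (-2.65 ± 0.24), APOBEC3B (-2.58 ± 0.43), RRAGD (-2.37 ± 0.27), LINC01013 (-2.31 ± 0.37) and the readthrough gene CFAP298-TCP10L (-2.44 ± 0.15) fell as well, as did the ribosomal protein pseudogene RPL36AP37, which near-identical copies make uncertain.

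Among called genes whose libraries did not overlap, the largest rises in CPM outside the rRNA loci were ACTG1, a cytoplasmic actin (7037, 6368 and 6865 CPM in endoderm and 3400.4, 3952 and 4279 CPM in hPSC; log2 change 0.69 ± 0.16, adjusted p = 0.0054), KRT8, SLC2A3 and KRT19. The largest falls in CPM among such genes, also outside those loci, were GAPDH, ESRG, RPLP0, POU5F1 and RPS18 (1491, 1369 and 1767 CPM in endoderm and 3791, 2315 and 2044 CPM in hPSC; log2 change -0.95 ± 0.26, adjusted p = 0.012). The call of RPS18 was lost without the second endoderm library. GAPDH and RPLP0 are common reference genes, at 4505, 4690.1 and 5662 CPM in endoderm and 7038, 6296 and 6247 CPM in hPSC for GAPDH, and each was called in 3 of the 6 fits without 1 library, losing the call without the first or the second endoderm or the second hPSC library. EEF1A1 (-0.19 ± 0.19) and ACTB (0.21 ± 0.20) were not called. Among the genes listed in the endoderm table only, the 8 with the highest CPM were APOA1, FGFR3, HNF4A, 5_8S_rRNA, ENSG00000281383, RN7SL2 (603, 526 and 391 CPM), RPL41P1 and the long noncoding PCAT14 (223, 175 and 142 CPM). The corresponding 8 of the hPSC table were ENSG00000274090 (614, 650.5 and 718 CPM), ENSG00000286279, ENSG00000289533, H1-10, a linker histone (380.2, 298 and 279 CPM), ENSG00000285625, ENSG00000262801, SOX2 and NCKAP1 (178, 208 and 219.8 CPM).

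The nucleus libraries of the same 2 cell types, 3 each, were compared by the same test and shared no library with the cytoplasm. There 5848 of 11413 genes (51.2%) were called, 26.2% of genes tested rising and 25.1% falling. The change differed between cytoplasm and nucleus in 3034 of 11563 genes (26.2%), 1617 (14%) with a higher value in cytoplasm and 1417 (12.3%) with a lower one. That split of 53.3% higher became 91.6% of 3154 calls with library totals in place of TMM factors, 70.1% of 2890 with upper-quartile factors and 94.0% of 4100 on TPM. Without the first or the second endoderm cytoplasm library 1842 and 1515 genes differed. Cytoplasm and nucleus libraries were not paired in the fit of this difference. Of the pluripotency genes 20 of 29 fell in the nucleus, and the difference was called in 9 genes as higher in cytoplasm and in 2 as lower. TERF1 changed by -4.45 ± 0.29 in the nucleus against -1.62 ± 0.22 in cytoplasm (difference 2.81 ± 0.36, adjusted p = 0.00035). LIN28B changed by -2.19 ± 0.32 in the nucleus (difference 1.96 ± 0.36, adjusted p = 0.0021) while its cytoplasmic level was not called as a gene sum and gave 1.96 over transcripts of both tables. For extracellular matrix genes 32 of 35 rose in the nucleus, and in 12 the cytoplasmic change was lower than the nuclear one, none being higher. COL18A1 was one, at 3.27 ± 0.44 in the nucleus and 1.34 ± 0.14 in cytoplasm (adjusted p = 0.0064). MSMO1 went the other way, 0.55 ± 0.26 in the nucleus against 2.60 ± 0.20 in cytoplasm (adjusted p = 0.0014), and of the 25 cholesterol genes 16 rose and none fell in the nucleus. Of the 85 ribosomal protein genes 26 fell in the nucleus and none rose, and the difference was called in 5, all lower in cytoplasm.

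**Figure D5:**
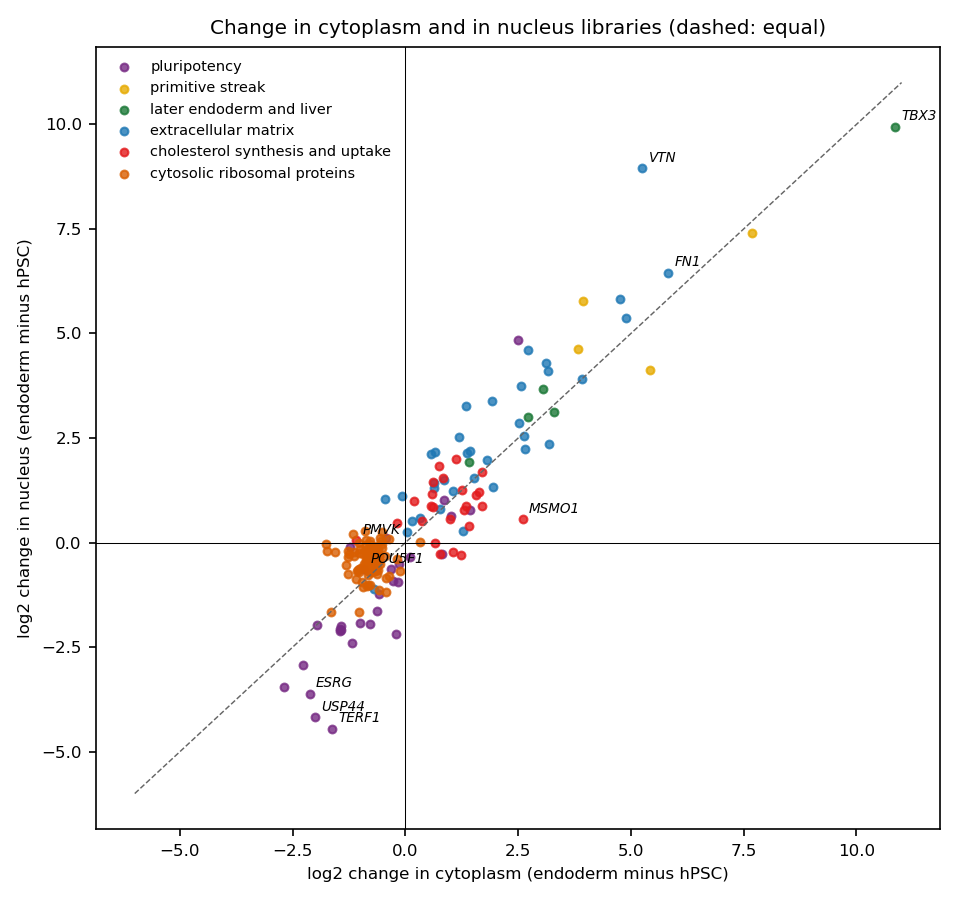
Log2 change between endoderm and hPSC in cytoplasm (horizontal) and in nucleus libraries (vertical) for members of 6 gene lists; each point is a gene and the dashed line marks equal change. Pluripotency genes such as TERF1 and ESRG lie below the line (nuclear values of -4.45 and -3.61), and most ribosomal protein genes lie left of it.

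The changes from hPSC were set beside 2 further comparisons of endoderm cytoplasm, with ectoderm and with mesoderm cytoplasm (3 libraries each). All 3 comparisons share the endoderm libraries, and 72.1% and 54.5% of genes were called against ectoderm and mesoderm. Of 10673 genes listed in all 4 tables and tested, 703 (6.59%) were higher in endoderm in all 3 comparisons and 814 (7.63%) lower. On TPM 72.6% of 1213 such genes were higher, and 60.3% of 1619 with library totals, against 46.3% here. SERPINE2 was higher in all 3, with 673, 564 and 484 CPM in endoderm beside 13.1 ± 1.21 in ectoderm and 19.6 ± 1.06 in mesoderm (mean ± SD, n = 3). VIL1 was too, with 10.2 ± 1.38 CPM in ectoderm and 7.7 ± 0.72 in mesoderm. FN1 stood at 1163 ± 161 CPM in mesoderm, where it was not called against endoderm (log2 difference -0.15, adjusted p = 0.38, edgeR fit of 12 libraries), and at 27.8 ± 2.52 CPM in ectoderm. POU5F1 stood at 6.42 ± 1.24 CPM in ectoderm and 907 ± 75.6 CPM in mesoderm, and endoderm was higher than both (log2 differences 8.05 and 0.87). Of the 85 ribosomal protein genes 41 were lower in endoderm than in all 3 others, and of 25 cholesterol genes 6 were higher.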

How the data were processed

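The authors deposited transcript counts and TPM for each cell type. STAR, RSEM and hg38 are named in the submitters' processing notes. Tool settings are not given in the sources used here, and counts deposited as whole numbers may be rounded estimates. Counts were summed per Ensembl gene without version, and the endoderm and hPSC tables were joined. The authors' TPM values were used in alternatives only, summed the same way, with pseudocounts of 1 and 0.1. Of the tables' columns, 1 matched no sample and was not used. Library totals run from 8329295 to 18360084 counts, which sets the precision for low genes.

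Genes passing filterByExpr (minimum count 10) went into the two-sided quasi-likelihood test of edgeR 4.0.16 in R 4.3.3 (glmQLFit, glmQLFTest), with library sizes scaled by TMM. Adjusted p-values are Benjamini-Hochberg over all genes tested, and 0.05 was the threshold. SE is the log2 change over the root of F. Alternatives used DESeq2 1.42.0, limma 3.58.1, other scalings and filters, transcripts of both tables, and fits without 1 library. An exact permutation test of 3 against 3 cannot go below p = 0.1. In simulated counts for this comparison (11410 genes), 84 of 98 genes changed 2-fold, 99 of 99 changed 4-fold and 16 of 11213 unchanged genes were called. The simulation changed a far smaller share of genes than the 50.9% called in the data. It held no library that stood apart and no difference in transcript assembly, so its rates need not hold here. Shares and ratios with an interval use exact 95% limits for counting error.

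Members and lists were chosen with earlier results of these data known. Named were every measured pluripotency, primitive streak and definitive endoderm gene; up to 4 called and 2 abundant uncalled members of each other list; the 12 largest rises and falls at 10 CPM or more with no overlap, called in every fit without 1 library; the 6 largest changes in mean CPM each way among called genes with no overlap; and the 8 highest genes of each single table. Some of these genes are not reported here. Other list members were named after their values were seen. Gene positions come from GENCODE (GRCh38).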

Additional observations from a re-analysis of the deposited data

Results flagged for a closer look

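Among the genes with the largest changes or levels, 7 differed between cytoplasm and nucleus in their endoderm-minus-hPSC log2 change, by the interaction term of edgeR's quasi-likelihood test over 12 libraries. The cytoplasmic change was the higher one for ENSG00000280614 (difference 7.88), TATDN1 (6.98) and SMCHD1 (5.53). It was the lower one for SLX1A (-8.76), ENSG00000278996 (-5.50), HAPSTR1 (-3.59) and RESF1 (-3.55). Of these 7, only SLX1A had a transcript listed in both tables.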

How the results depend on the processing

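Of 5832 calls in cytoplasm, the count was 3705 over transcripts of both tables (fewer genes were tested) and 2345 with at least a 2-fold change. Leaving out 1 library gave 4251 to 6279. The cytoplasm-nucleus difference gave 1515 to 3675 without 1 library. Genes apart in endoderm from all 3 other cell types gave 505 with at least a 2-fold change. Between endoderm and hPSC cytoplasm, replicate numbers did not pair the libraries (correlations of deviations of same-numbered libraries -0.08, 0.07 and -0.17). Pairing of cytoplasm with nucleus libraries of a cell type was not checked. A fit with the replicate number as a block, shared across cell types, gave 5238, 2863 and 1434 calls for the 3 comparisons. Signs turned on log2(TPM + 1) and log2(TPM + 0.1) for NES (0.27 and 0.27), COL4A1 (-1.66 and -1.68), TET3 (-0.18 and -0.22), VEGFA (0.65 and 0.68), MRPS21 (1.71 and 1.72), MRPS23 (1.82 and 1.86), NDUFA3 (1.02 and 1.02) and H2AC15 (-0.32 and -0.072). They turned over transcripts of both tables for NANOG (0.30), LIN28B (1.96), USP44 (3.13), CD24 (4.44), ELF3 (0.95) and ESRP1 (0.30). The cause was not tested. NANOG was not called without the first endoderm (-0.55) or second hPSC library (-0.48). These sign changes, and the counts that follow, cover values of chosen genes under each alternative, not all genes tested. Over all genes tested, 101 of 5832 calls took the other direction over transcripts of both tables, and 1142 were lost. Of the values of chosen genes, 2874 kept direction and side of the threshold, 103 lost a call and 76 gained one. The 22 above turned with a call in at least 1 of the fits compared. A further 113 took the other sign with a call in neither fit, among them LIN28A without the first hPSC library (-0.16). Depth limits genes of a few counts, and a gene absent from a table has no value at any depth.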
